A study of Mus musculus with 8 samples.

Results

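The stromal vascular fraction (SVF) of gonadal white adipose tissue (WAT) is what remains of the fat pad once the adipocytes are removed, and it holds vessel cells, progenitors and leukocytes. Vascular and lymphatic endothelial genes were examined in this fraction by bulk RNA sequencing. They are Pecam1, Cdh5, Kdr, Tie1, Vwf, Gpihbp1, Plvap, Prox1, Flt4 and Mmrn1, 10 of the 54532 genes in the count table, chosen by name. All 10 had enough counts to be tested. Male C57BL/6J mice were fed a high-fat diet (HFD, 60% of calories from fat) for 12 weeks. The sources used here do not give the age of these mice at the start of the HFD. They were then moved to a normal chow diet (NCD, 16% of calories from fat) for 6 weeks. From that switch on, they received 2 mg/kg of an isotype control Ab (mice 1, 2, 6 and 9) or of an Ab that neutralizes the B cell survival factor BAFF (mice 5, 7, 8 and 10) every 2 weeks. All 8 mice therefore shared the obesity and the diet change, and the comparison of the Abs asks what BAFF neutralization did to these genes during the change of diet.

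Endothelial cells line blood and lymphatic vessels and hold to each other through junction proteins. Vascular endothelial growth factors (VEGFs) act on them through receptor tyrosine kinases, with VEGFR2 central to blood vessel growth and VEGFR3 to lymphatic growth. In fat, capillary endothelium carries lipoprotein lipase on its surface, where fatty acids are freed for uptake, and the transcription factor PROX1 keeps lymphatic endothelium in its identity.

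Counts per mouse summed to between 13562340 and 18548024, so that 3 counts correspond to at most 0.219 CPM, the count scaled to a common library size after TMM normalization, far below the level of any of the 10 genes. The fraction carried RNA of another tissue, the epididymis, in some mice, and mouse 5 stood apart in markers of neutrophils, which are leukocytes. Epididymis marker genes, summed, reached 1905 CPM in mouse 2 and 1873 CPM in mouse 7 and spanned 19.0 to 689.6 CPM in the other 6 mice, and neutrophil markers reached 168 CPM in mouse 5 against 28.6 to 40.9 CPM in the others. B cell markers, whose loss checks the treatment, spanned 57.3 to 66.9 CPM in control Ab-treated mice and 26.1 to 46.5 CPM in anti-BAFF Ab-treated mice. Adipocyte progenitor markers (4067 to 7149 CPM) and macrophage markers (4574 to 6078 CPM) were abundant in all mice, whereas adipocyte markers summed to at most 64.3 CPM. The endothelial genes below were likewise present in every mouse. In bulk RNA, fewer cells of a type and less RNA per cell cannot be told apart.

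The promoters of the receptor genes and of Prox1, the genes with a RefSeq start near the deposited one, are shown so that the receptors can be compared with each other and with the lymphatic factor. Each is the 250 bases before the RefSeq start in GRCm38.p6, read 5′ to 3′ on the strand of the gene. Kdr lies at chr5:75978456-75978705 (minus strand), Tie1 at chr4:118489850-118490099 (minus strand), Flt4 at chr11:49609429-49609678 (plus strand) and Prox1 at chr1:190170828-190171077 (minus strand). The RefSeq start lay 3 bases from the deposited start for Kdr, 113 for Prox1, 212 for Tie1 and 416 for Flt4. By the deposited coordinates, the Flt4 window therefore lies wholly inside the gene, and most of the Tie1 window does. Capitals mark CGGAAG or AGGAAG on either strand, forms of the site for ETS factors, a family that many endothelial promoters use. The shorter GGAA inside both forms is not marked.
Kdr: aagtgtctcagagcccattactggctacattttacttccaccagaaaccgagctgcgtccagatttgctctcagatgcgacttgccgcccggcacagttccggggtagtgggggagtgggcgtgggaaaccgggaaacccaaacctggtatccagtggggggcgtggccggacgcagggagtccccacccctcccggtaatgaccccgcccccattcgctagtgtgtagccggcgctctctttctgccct
Tie1: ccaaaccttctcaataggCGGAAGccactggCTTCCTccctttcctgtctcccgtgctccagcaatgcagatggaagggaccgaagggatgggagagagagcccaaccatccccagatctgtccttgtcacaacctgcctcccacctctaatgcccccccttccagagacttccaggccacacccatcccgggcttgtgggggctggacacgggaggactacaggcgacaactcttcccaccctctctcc
Flt4: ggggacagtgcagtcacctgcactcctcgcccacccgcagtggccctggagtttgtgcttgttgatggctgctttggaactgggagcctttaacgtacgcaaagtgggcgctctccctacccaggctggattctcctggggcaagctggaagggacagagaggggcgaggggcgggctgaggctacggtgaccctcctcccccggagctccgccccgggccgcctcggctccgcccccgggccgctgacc
Prox1: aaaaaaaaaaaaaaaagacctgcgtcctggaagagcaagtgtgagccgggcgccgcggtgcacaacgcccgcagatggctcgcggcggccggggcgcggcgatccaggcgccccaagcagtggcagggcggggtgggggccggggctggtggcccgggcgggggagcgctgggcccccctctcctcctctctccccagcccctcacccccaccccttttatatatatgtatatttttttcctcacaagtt
These 4 genes had 5 promoter windows in the RefSeq table, since Prox1 has a second start. A window with CGGAAG or AGGAAG was found for Tie1 only. Its matches lie at bases -232 to -227 and -219 to -214 from the start, the latter on the opposite strand. CGGAAG or AGGAAG was present in 39.2% of the 32851 promoters of the same length. The shorter GGAA occurs in all 4 printed windows, so the absence of the longer forms does not show the absence of an ETS site. Neither AACAAT, the core of a SOX site (9.42% of all promoters), nor AGATAA, the core of a GATA site (9.99%), occurred in the 5 windows on either strand. A match is a stretch of letters and not a measured site. GC content was 60.4% in the Tie1 window, 61.6% for Kdr, 64.8% for Prox1 and 68.4% for Flt4.

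Per length, as FPKM (CPM divided by the gene length in kilobases), the 10 genes covered a wide range. Plvap (75.6 ± 12.5 FPKM, SD, n = 8) and Cdh5 (70.8 ± 15.5) were the highest. Plvap encodes the protein of the diaphragms that close fenestrae and caveolae, and Cdh5 encodes VE-cadherin, the adhesion molecule of endothelial junctions. Their order was not fixed, since Plvap exceeded Cdh5 in 4 of 8 mice. Pecam1, which encodes the junction protein CD31, followed at 43.8 ± 8.77 FPKM and was below Cdh5 and above the next gene in 8 of 8 mice. Tie1 (23.1 ± 5.29 FPKM) and Gpihbp1 (22.8 ± 3.55) changed places in 4 of 8 mice, as did Kdr (13.9 ± 2.63) and Vwf (13.7 ± 3.45). The lymphatic genes were the lowest. Mmrn1 stood at 4.99 ± 2.48 FPKM and was above Flt4 (3.52 ± 0.905) in 6 of 8 mice, and Flt4 was above Prox1 (0.866 ± 0.396) in 8 of 8 mice. Mmrn1 encodes multimerin 1, a secreted glycoprotein that is a lymphatic endothelial marker and is also made by megakaryocytes. The 9 platelet and megakaryocyte markers summed to 133 to 168 CPM in control Ab-treated mice and 122 to 189.9 CPM in anti-BAFF Ab-treated mice, of which Pf4, which macrophages can also express, made up 102 to 173 CPM. Itga2b was at 10.1 to 16.2 CPM, Ppbp at 0.512 to 3.50 CPM and Treml1 at 0.457 to 1.13 CPM, while the platelet receptor gene Gp1bb was at 0 in 7 of 8 mice and Gp6 did not exceed 0.0673 CPM. The part of platelet RNA in the Mmrn1 and Vwf levels was not tested.

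No difference between the treatments passed the test in the 10 endothelial genes. In edgeR's quasi-likelihood test across all genes, 0 of 10 passed an adjusted p of 0.05, and the adjusted p of each was 1.00. This threshold called 0.0564% of the 15963 genes tested, 9 genes, all lower in anti-BAFF Ab-treated mice. No member had an unadjusted p under 0.05 in edgeR (1.9% of all genes tested), DESeq2 or limma. Mouse 1 stood apart from the other control Ab-treated mice, with a chi-square per degree of freedom of 54.3 to 70.2 against 7.32 to 23.0 among those 3. Without it 10.5% of the genes tested had an unadjusted p under 0.05, yet none of the 10 endothelial genes did, the lowest being 0.0979 for Vwf. In all 10 genes the groups overlapped, while they did not overlap in 1.48% of all genes tested. The median log2 fold change, anti-BAFF Ab over control Ab, was -0.06 for the 10 genes, of which 7 were below 0, and 0.00 for all genes tested. The intervals below give the sizes of difference that 4 mice against 4 left possible, since a p above the threshold does not show equal levels.

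Among the junction genes, Cdh5 (chr8:104101625-104144511 in the deposited mm10 coordinates, plus strand) measured 196, 285, 359.8 and 319 CPM in control Ab-treated mice 1, 2, 6 and 9. In anti-BAFF Ab-treated mice 5, 7, 8 and 10 it measured 265, 227, 364 and 365 CPM. Mice 1 and 7 were the lowest of their groups and the groups overlapped, with a log2 fold change of 0.07 ± 0.21 (SE; 95% confidence interval -0.41 to 0.55). Pecam1 (chr11:106654217-106750628, minus strand) measured 192, 259.8, 347 and 296 CPM in control Ab-treated mice and 248.5, 209, 319.7 and 310.0 CPM in anti-BAFF Ab-treated mice. As for Cdh5, mice 1 and 7 were the lowest of their groups, and the log2 fold change was -0.01 ± 0.19 (SE; 95% confidence interval -0.45 to 0.43).

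Among the receptor kinases of blood endothelium, Kdr (chr5:75932827-75978458, minus strand), which encodes VEGFR2, measured 87.4, 122, 146 and 142 CPM in control Ab-treated mice. The anti-BAFF Ab-treated mice measured 117, 98.0, 143 and 151 CPM for Kdr. Mice 1 and 7 were the lowest of their groups, and the groups overlapped almost fully, with a log2 fold change of 0.03 ± 0.19 (SE; 95% confidence interval -0.38 to 0.45). Tie1 (chr4:118471191-118490061, minus strand) encodes an orphan receptor that modulates the angiopoietin receptor TIE2. It measured 72.6, 108, 148 and 131 CPM in control Ab-treated mice and 108, 82.5, 130.04 and 130.2 CPM in anti-BAFF Ab-treated mice. The low mice of each group were again 1 and 7 for Tie1, whose log2 fold change was -0.03 ± 0.22 (SE; 95% confidence interval -0.53 to 0.48).

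Vwf (chr6:125546774-125686679, plus strand) encodes von Willebrand factor, the adhesive protein stored by endothelium and platelets. It measured 176, 217, 312 and 254 CPM in control Ab-treated mice and 158, 154, 234 and 260.1 CPM in anti-BAFF Ab-treated mice. Mouse 6 was highest and mice 5 and 7 were lowest, and the log2 fold change was -0.25 ± 0.22 (SE; 95% confidence interval -0.75 to 0.25). Of the 10 genes, Vwf came nearest to a difference, with an unadjusted edgeR p of 0.284 and an exact two-sided permutation p of 0.343 on log2 CPM, where the smallest p that 4 mice against 4 allow is 0.0286. Plvap (chr8:71497765-71511752, minus strand) measured 129, 146, 199 and 147 CPM in control Ab-treated mice and 124, 131, 171 and 154 CPM in anti-BAFF Ab-treated mice. Mouse 6 was highest and mouse 5 lowest for Plvap, and the log2 fold change was -0.10 ± 0.15 (SE; 95% confidence interval -0.44 to 0.25). Plvap overlaps Gtpbp3 on the other strand, which had 11.1 CPM on average, and the strand setting of the counting is not given in the sources used here.

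Gpihbp1 (chr15:75596628-75599481, plus strand) encodes the protein that carries lipoprotein lipase to the capillary lumen and holds it there. It measured 49.2, 64.4, 60.2 and 53.0 CPM in control Ab-treated mice and 55.8, 44.6, 66.9 and 70.8 CPM in anti-BAFF Ab-treated mice. The lowest and the highest mouse were both treated with anti-BAFF Ab, and the log2 fold change was 0.07 ± 0.15 (SE; 95% confidence interval -0.27 to 0.41). With a ratio of 1.59 between the highest and the lowest mouse, Gpihbp1 had the narrowest range of the 10 genes.

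The lymphatic genes spread more among control Ab-treated mice than among anti-BAFF Ab-treated mice. Their SDs in these groups were 4.83 and 1.34 CPM for Prox1, 10.5 and 3.93 CPM for Flt4, and 20.6 and 6.49 CPM for Mmrn1. Prox1 (chr1:190118035-190170714, minus strand) measured 3.54, 3.90, 13.3 and 10.3 CPM in control Ab-treated mice 1, 2, 6 and 9 and 4.98, 7.71, 6.53 and 7.89 CPM in anti-BAFF Ab-treated mice 5, 7, 8 and 10. These levels rest on 57 to 182 counts a mouse. Mice 1 and 2 were below and mice 6 and 9 above all 4 anti-BAFF Ab-treated mice, and the log2 fold change was -0.19 ± 0.42 (SE; 95% confidence interval -1.13 to 0.75). Flt4 (chr11:49609263-49652739, plus strand), which encodes VEGFR3, measured 18.4, 24.2, 39.3 and 38.7 CPM in control Ab-treated mice and 25.1, 25.1, 27.7 and 33.4 CPM in anti-BAFF Ab-treated mice. The same mice were below and above the anti-BAFF Ab-treated group for Flt4, and the log2 fold change was -0.11 ± 0.24 (SE; 95% confidence interval -0.65 to 0.42). Mmrn1 (chr6:60924976-60989378, plus strand) measured 12.4, 17.6, 47.9 and 52.6 CPM in control Ab-treated mice and 17.7, 30.2, 24.1 and 32.0 CPM in anti-BAFF Ab-treated mice. For Mmrn1 too, mice 1 and 2 were lowest and mice 6 and 9 highest, and the log2 fold change was -0.32 ± 0.44 (SE; 95% confidence interval -1.31 to 0.66). As a fold, this interval spans 0.403 to 1.59.

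**Figure D1:**
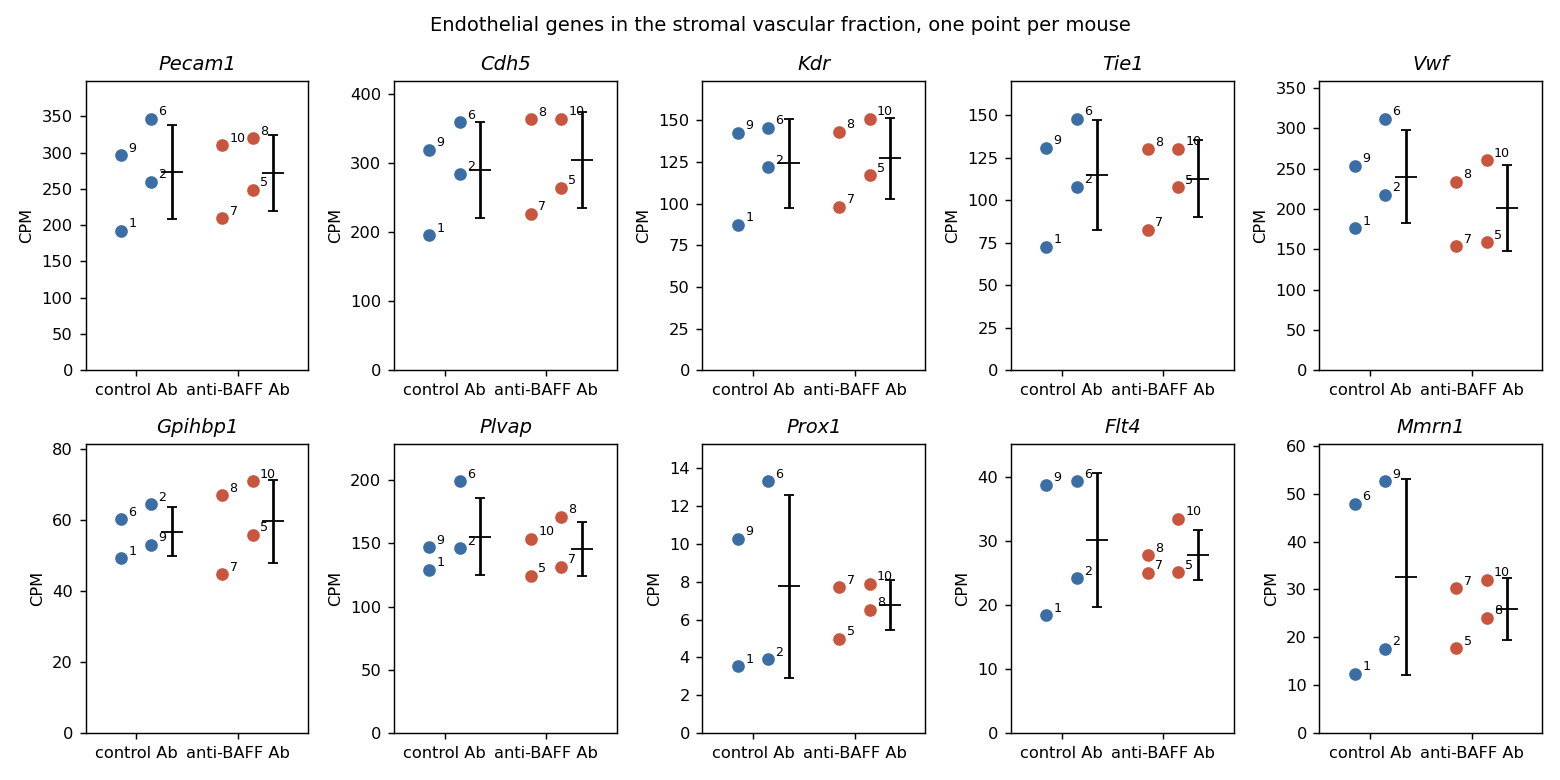
CPM of each endothelial gene (y axis, from 0) in each of 8 mice, by treatment (x axis). Points are mice, and the groups overlap in all 10 panels. In the panels of Prox1, Flt4 and Mmrn1 the 4 anti-BAFF Ab-treated mice lie between the control Ab-treated mice.

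**Figure D2:**
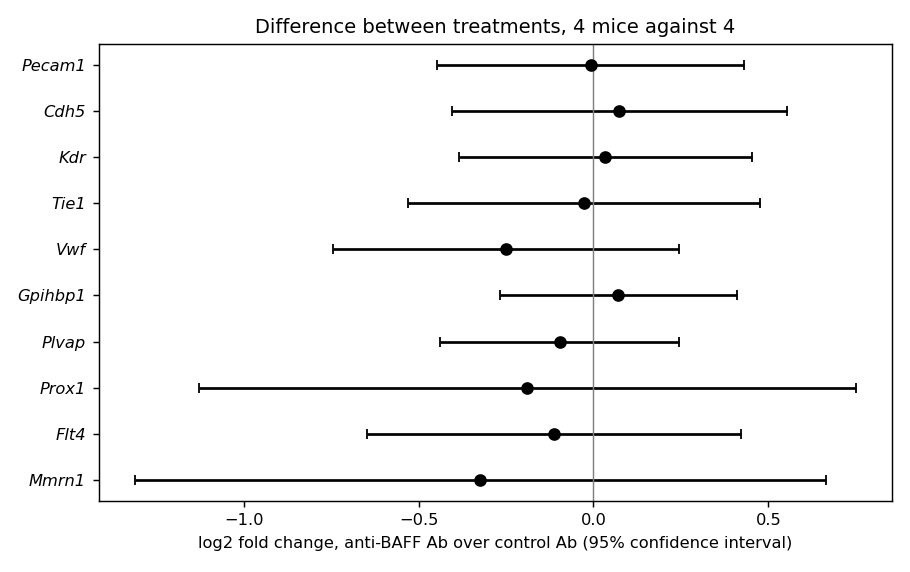
Log2 fold change of anti-BAFF Ab over control Ab for each of the 10 genes (points) with its 95% confidence interval (bars). Every interval includes 0, and the widest are those of Mmrn1 (-1.31 to 0.66) and Prox1 (-1.13 to 0.75).

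Spread between mice set the members apart more than treatment did. The SD of log2 CPM within groups was 0.78 for Mmrn1 and 0.71 for Prox1, above those of 95.1% and 93.6% of the genes tested. For Flt4 it was 0.40, close to 0.39 for Tie1, 0.37 for Vwf and 0.36 for Cdh5. It was 0.24 for Plvap and 0.25 for Gpihbp1, near the median of 0.23 over the genes tested. The ratio of the highest to the lowest mouse was 4.24 for Mmrn1 and 3.77 for Prox1. Relative to Cdh5 per length, Kdr was nearly fixed at 18.3% to 20.8% of the Cdh5 level. Prox1 varied from 0.686% to 1.85% and Mmrn1 from 4.41% to 11.8% of the Cdh5 level, with mouse 2 lowest for both. Gpihbp1 varied from 27.3% of the Cdh5 level in mouse 9 to 41.4% in mouse 1.

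Genes outside the 10, in 6 lists chosen for endothelium, also showed no difference past the threshold between the treatments. The lists include ligands such as Vegfa, and Icam1, which was also in the adipocyte progenitor list. The part of other cells in their levels was not tested. Over these 6 lists, 81 genes were tested and 0 passed the threshold. At an unadjusted p under 0.05 in edgeR there were 0, and 0 were called in DESeq2 (0.219% of all genes tested there). Of these 81 genes 37 had a log2 fold change below 0 and 44 above 0, between -0.34 and 0.33, with a median of 0.03. The list medians were 0.01 for 14 growth factors and receptors, 0.03 for 22 pan-endothelial genes, 0.01 for 15 genes of capillary fatty acid handling and 0.03 for 11 arterial genes. They were 0.10 for the 8 tested of 9 venous and leukocyte adhesion genes, with Madcam1 too low to test, and -0.02 for 12 lymphatic genes.

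Examples from these lists lay near the members in size. Cldn5, a tight junction gene of endothelium, measured 277 ± 63.4 CPM (SD, n = 4) in control Ab-treated mice and 332 ± 86.1 CPM in anti-BAFF Ab-treated mice, with a log2 fold change of 0.26 ± 0.22 (SE). Flt1, which encodes VEGFR1, was at 138 ± 33.2 CPM and 142 ± 37.5 CPM. Tek, which encodes the angiopoietin receptor TIE2, was at 88.9 ± 25.3 CPM and 92.6 ± 25.8 CPM. The 81 genes reached their extremes in the pan-endothelial gene Clec14a, at -0.34 ± 0.20 (SE), and in Hey1, a Notch target of arterial endothelium, at 0.33 ± 0.23 (SE). Among the lymphatic genes, Lyve1, a hyaluronan receptor that tissue macrophages also express, had a log2 fold change of -0.23 ± 0.23 (SE). Reln, which encodes reelin, had the split of the control group seen in Mmrn1, at 13.5, 18.5, 48.1 and 49.4 CPM in control Ab-treated mice and 17.8, 36.4, 23.7 and 33.3 CPM in anti-BAFF Ab-treated mice.

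**Figure D3:**
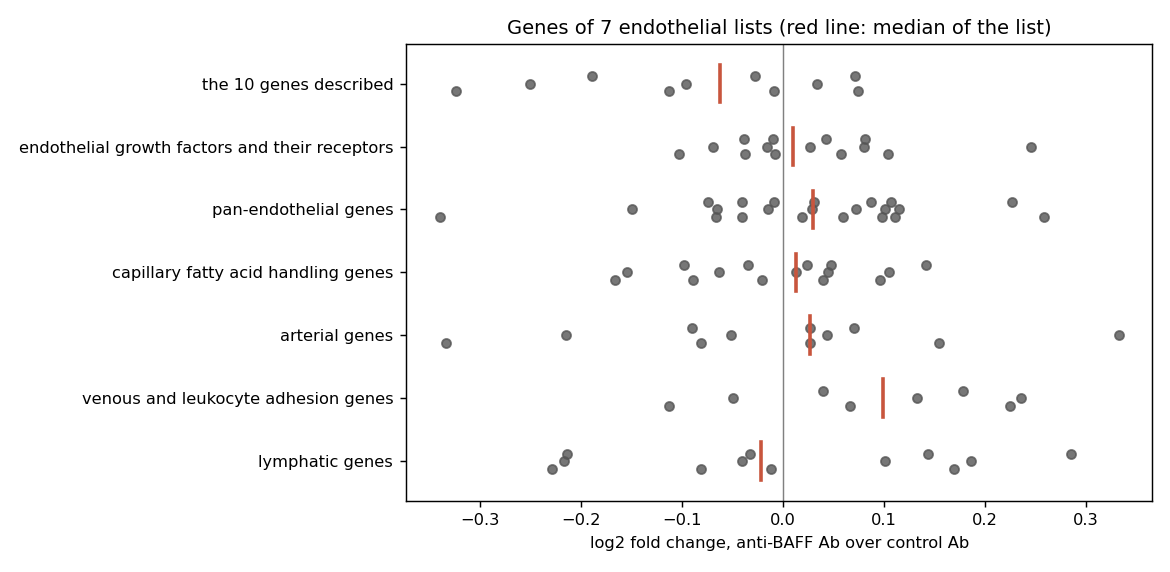
Log2 fold change of anti-BAFF Ab over control Ab (x axis) for the tested genes of the 6 endothelial lists and the 10 genes described (rows). Each point is a gene and the red line is the median of its list. All points of the 6 lists lie between -0.34 and 0.33, and the medians lie between -0.06 for the 10 genes and 0.10 for the venous list.

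Part of the spread between mice was shared among the 10 genes. They were chosen by name as blood vessel, capillary and lymphatic genes, with earlier results of these data known. Over the 45 pairs, Pearson r of log2 CPM across 8 mice was positive in all 45, with a median of 0.778. By exact permutation over the pairings of mice, with adjustment over 45 pairs, 23 pairs passed 0.05 by Pearson r and 26 by Spearman rho. The lowest r among the 23 was 0.778, and 4.3% of all pairs of tested genes had an r at or above it, with 49.8% of those pairs positive. CPM values are shares of one total in each mouse.

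Pecam1, Cdh5, Kdr and Tie1, called the blood set below, were the tightest set. The label is a name only, since bulk RNA does not show from which vessels their RNA came. The 6 pairs of Pecam1, Cdh5, Kdr and Tie1 had r between 0.969 and 0.989, and 6 of 6 passed. For Cdh5 and Kdr, r was 0.987 (exact permutation p = 7.44e-05, adjusted 0.00335) and rho was 0.976 (p = 0.000397, adjusted 0.00893). Without mice 1 and 7, the farthest from the median, r was 0.953. For Pecam1 and Cdh5, r was 0.984 (exact permutation p = 0.000149, adjusted 0.00335), rho was 0.905 (p = 0.00456, adjusted 0.0205) and r was 0.945 without mice 1 and 7. With any single mouse left out, r of these 6 pairs remained between 0.941 and 0.994.

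Prox1, Flt4 and Mmrn1 were correlated in 3 of 3 pairs, of which 1 passed with values centred within each treatment, at r from 0.915 to 0.970. Prox1 and Mmrn1 had r of 0.966 (exact permutation p = 0.000322, adjusted 0.00335) and rho of 0.976 (p = 0.000397, adjusted 0.00893), and r was 0.953 without mice 1 and 6. Prox1 and Flt4 had r of 0.912 (exact permutation p = 0.00260, adjusted 0.0123) and rho of 0.929 (p = 0.00223, adjusted 0.0167), and r was 0.808 without mice 1 and 6. With any single mouse left out, r of the 3 lymphatic pairs remained between 0.875 and 0.983. Between the lymphatic genes and the blood set, r ranged from 0.628 to 0.878 and 4 of 12 pairs passed. The 4 were those of Flt4 with Pecam1, Cdh5, Kdr and Tie1, at adjusted p from 0.0123 to 0.0334. This count rests on single mice, with 10 of 12 pairs passing without mouse 7 (r from 0.760 to 0.917) and 0 of 12 without mouse 1, without mouse 6 or without mouse 10. Among the 4 control Ab-treated mice, r with the blood set was 0.844 to 0.914 for Prox1 and Mmrn1 and 0.933 to 0.958 for Flt4. Among the 4 anti-BAFF Ab-treated mice it was -0.0785 to 0.165 for Prox1 and Mmrn1 and 0.719 to 0.828 for Flt4. For Prox1 and Flt4, r was 0.960 and 0.529 in these groups. That the sets or the treatments differ in r was not tested.

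Vwf followed the blood set, at r from 0.83 to 0.874 with 4 of 4 pairs past the threshold, and Plvap did so in 3 of 4 pairs, at r from 0.725 to 0.846. Vwf and Plvap correlated with each other at r of 0.885 (adjusted exact permutation p = 0.0123). Gpihbp1 had r from 0.710 to 0.798 with the blood set, where 1 of 4 pairs passed. Without mice 1 and 7, r of these 4 pairs was 0.0964 to 0.522, so the values rest in part on those mice. With the lymphatic genes, Gpihbp1 had r from 0.0729 to 0.361, where 0 of 3 pairs passed. For Gpihbp1 and Prox1, r was 0.0729 (exact permutation p = 0.861, adjusted 0.861), rho was 0.143 (p = 0.752, adjusted 0.769) and r was 0.133 without mice 7 and 10. The numbers of pairs past the threshold rest in part on single mice. Of all 45 pairs, 9 passed without mouse 6, 11 without mouse 10, 14 without mouse 2, 15 without mouse 1, 9 without mice 2 and 7 and 4 without mice 1 and 7. With values centred within each treatment, 16 pairs passed.

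**Figure D4:**
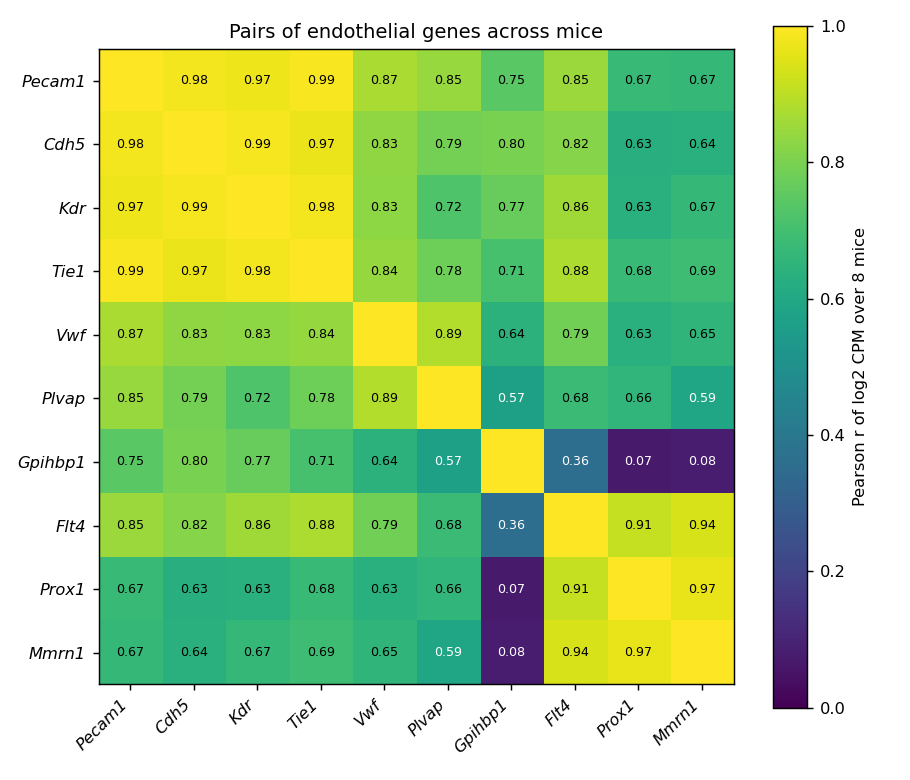
Pearson r of log2 CPM over 8 mice (colour and printed value) for each pair of the 10 endothelial genes (rows and columns). Pecam1, Cdh5, Kdr and Tie1 form a square with r from 0.969 to 0.989, and Prox1, Flt4 and Mmrn1 a square with r from 0.912 to 0.966. The darkest cells, with the lowest r, are those of Gpihbp1 with the lymphatic genes.

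Other genes that followed these sets were sought among 15951 other tested genes. For the mean log2 CPM of Pecam1, Cdh5, Kdr and Tie1, 670 genes had r above 0.9 over 8 mice, and the most alike were Prex2 (r = 0.992), 4930523C07Rik (0.991), Ptprm (0.990), Jam2 (0.990), Pde4b (0.989), Utrn (0.989), Birc3 (0.989), Sptbn1 (0.988), Adgrf5 (0.987) and Tjp1 (0.986). For the mean log2 CPM of Prox1, Flt4 and Mmrn1, 123 genes had r above 0.9. The most alike were Mir17hg (0.982), Kcnt1 (0.981), Reln (0.976), F8 (0.974), Dll1 (0.969), AC159187.1 (0.967), Gm37121 (0.964), Suco (0.963), Sh2d6 (0.961) and Pard6g (0.961). Reln was in the lymphatic list as well. These likenesses are descriptions over 8 mice that share libraries and depth, chosen as the highest of many genes.

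Receptors were set beside their ligands or partners in 6 relations chosen after the values were seen, with adjustment over the 6. Flt4 varied with Vegfc, a VEGFR3 ligand, at r of 0.894 (exact permutation p = 0.00139, adjusted 0.00417), with rho of 0.881 (p = 0.00724, adjusted 0.0214) and r of 0.906 without mice 6 and 9. With Vegfd, the other VEGFR3 ligand, Flt4 had r of 0.838 (exact permutation p = 0.00823, adjusted 0.00988), rho of 0.857 (p = 0.0107, adjusted 0.0214) and r of 0.877 without mice 6 and 9. Mice 6 and 9 are those with the most Flt4. Without mouse 1, which had the least, r of Flt4 was 0.817 with Vegfc and 0.685 with Vegfd. Tie1 varied with Angpt1, a ligand of TIE2, at r of 0.973 (exact permutation p = 0.000149, adjusted 0.000893), with rho of 0.905 (p = 0.00456, adjusted 0.0214) and r of 0.894 without mice 1 and 7. With Angpt2, Tie1 had r of 0.886 (exact permutation p = 0.00320, adjusted 0.00603), rho of 0.762 (p = 0.0368, adjusted 0.0551) and r of 0.645 without mice 1 and 7.

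Kdr and its ligand Vegfa had r of 0.916 (exact permutation p = 0.00402, adjusted 0.00603) but rho of 0.643 (p = 0.0962, adjusted 0.115), and r was 0.440 without mice 1 and 7. That relation therefore rests on those 2 mice, in which Vegfa measured 39.4 and 47.5 CPM against 120.3 to 151 CPM in the other 6. Gpihbp1 and Lpl, which encodes lipoprotein lipase, had r of -0.275 (exact permutation p = 0.518, adjusted 0.518), rho of -0.0238 (p = 0.977, adjusted 0.977) and r of -0.438 without mice 7 and 10. Lpl was highest in mouse 1, at 3976 CPM, against 2581 to 3213 CPM in the other mice.

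Cdh5 and Prox1 were set beside the summed levels of 7 marker lists of other cells in 14 relations chosen after the values were seen. By Spearman rho, the relation of Prox1 with macrophage markers was the only one of the 14 past the adjusted threshold. Prox1 fell as the summed level of the 10 macrophage markers rose, at r of -0.967 (exact permutation p = 0.000446, adjusted 0.00625) and rho of -0.952 (p = 0.00114, adjusted 0.0160). Without mice 1 and 6, r was -0.932, and with values centred within treatments it was -0.970. The macrophage markers summed to 6078 and 5653 CPM in mice 1 and 2, where Prox1 was lowest, and to 4574 and 4655 CPM in mice 6 and 9, where it was highest. The macrophage sum ranged from 4916 to 5660 CPM in anti-BAFF Ab-treated mice. For Cdh5 and the macrophage sum, r was -0.555 (exact permutation p = 0.157, adjusted 0.244), rho was -0.476 (p = 0.243, adjusted 0.378) and r was -0.586 without mice 1 and 7. Without mouse 1 alone it was -0.243. Among control Ab-treated mice alone r was -0.905, and among anti-BAFF Ab-treated mice it was 0.215.

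Cdh5 rose with the summed adipocyte progenitor markers, at r of 0.950 (exact permutation p = 0.000992, adjusted 0.00694), with rho of 0.857 (p = 0.0107, adjusted 0.0718) and r of 0.881 without mice 1 and 7. Of that sum, 4067 to 7149 CPM over the mice, Dcn alone measured 2189 to 4685 CPM. Icam1 is both in this list and in the list of venous and leukocyte adhesion genes. With pericyte and smooth muscle markers, which summed to 744 to 1685 CPM in control Ab-treated mice and 1058 to 1370 CPM in anti-BAFF Ab-treated mice, Cdh5 had r of 0.888 (exact permutation p = 0.00278, adjusted 0.0130). The Spearman coefficient was 0.786 (exact permutation p = 0.0279, adjusted 0.0782) there, and r was 0.640 without mice 1 and 7. Past the Pearson threshold but not the Spearman one were also Cdh5 with adipocyte markers, at r of 0.845 (exact permutation p = 0.00551, adjusted 0.0193; rho = 0.833, p = 0.0154) and 0.539 without mice 1 and 7, and Cdh5 with mesothelial markers, at r of 0.780 (p = 0.0183, adjusted 0.0480; rho = 0.571, p = 0.151) and 0.150 without them. Prox1 with pericyte markers had r of 0.778 (exact permutation p = 0.0206, adjusted 0.0480; rho = 0.786, p = 0.0279) and 0.464 without mice 1 and 6. The epididymis markers, high in mice 2 and 7, had r of 0.0267 with Cdh5 (exact permutation p = 0.947, adjusted 0.972; rho = -0.119, p = 0.793) and 0.123 with Prox1 (p = 0.765, adjusted 0.892; rho = 0.0476, p = 0.935). The value with Cdh5 rests on mouse 1, since r was -0.728 without mouse 1 and -0.617 without mice 1 and 7. The value with Prox1 rests on more than that mouse. There r was -0.351 without mouse 1, 0.438 without mouse 2 and -0.621 without mice 1 and 6. The part of these other cells in the endothelial levels was not tested.

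**Figure D5:**
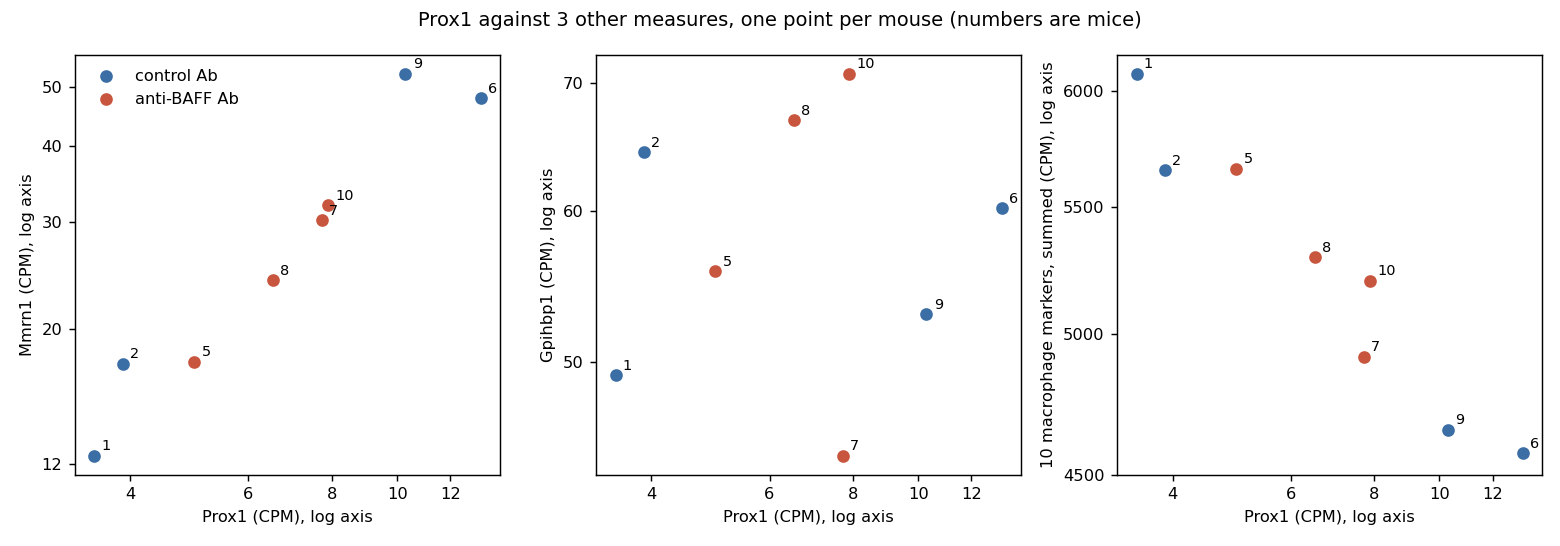
Mmrn1, Gpihbp1 and the summed level of 10 macrophage markers (y axes, CPM, log axes) against Prox1 (x axes, CPM, log axes) in 8 mice, coloured by treatment and numbered by mouse. Mmrn1 rises with Prox1 (r = 0.966), the macrophage markers fall (r = -0.967) and Gpihbp1 shows no clear slope (r = 0.0729).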

How the data were processed

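Bulk RNA sequencing of the SVF of gonadal WAT was analysed for 8 mice, 4 a group, grouped by the treatment in their labels. The authors sequenced paired-end libraries and deposited raw counts per gene for each mouse, with coordinates and gene length. The deposited gene length, an other value in bases, was used for FPKM only. The labels' processing notes name mm10. The aligner, the counting tool and the strand setting are not given in the sources used here. Replicates of a group were not repeated libraries, with a chi-square per degree of freedom of at least 7.32.

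Counts were normalised by TMM and tested in edgeR 4.0.16 (R 4.3.3) by filterByExpr with a minimum count of 10, glmQLFit and glmQLFTest, with treatment as the only term and Benjamini-Hochberg adjustment over 15963 genes. Standard errors came from the F statistic. Log2 CPM used a prior count of 2. DESeq2 1.42.0, limma 3.58.1 on log2(FPKM + 1) and log2(FPKM + 0.1), other normalizations and filters, the robust option and leaving out mice were alternatives. Tests were checked on simulated data. Correlations were tested by exact two-sided permutation in Python 3.11.15. P-values measure the spread between these mice, and the floor of 3 counts covers counting error only.

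The genes and lists were chosen by name with earlier results of these data known. Genes named are the 10 endothelial genes, genes of 16 lists of endothelial genes and of markers of other cells, and the 10 genes most alike to each of the pair of mean profiles. Promoters were matched by symbol within 2000 bases of the deposited gene start, which gave 4 genes. Mmrn1 was left out because its RefSeq start lay 19341 bases away.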

Additional observations from a re-analysis of the deposited data

Results flagged for a closer look

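Both of the results below are of a mouse that stood apart from the other 3 of its group, and 2 of the 52 groups of 4 mice examined were marked, where chance gives 2.6. The summed level of the 15 capillary fatty acid handling genes was 9472 CPM in control Ab-treated mouse 1, and its gap to the nearest mouse was 0.905 of the range of the group. Lpl (3976 CPM) and Cd36 (3899 CPM), the fatty acid transporter, were the main parts of that sum in mouse 1, in which Cdh5, Pecam1, Kdr and Tie1 were lowest. The macrophage markers also summed highest in mouse 1, at 6078 CPM against 4574 to 5660 CPM in the other mice. The part of macrophages in the Lpl and Cd36 levels was not tested. In mouse 5 of the anti-BAFF Ab group, the neutrophil markers summed to 168 CPM, with a gap of 0.938 of the range. The 10 endothelial genes themselves had no mouse that stood apart in this way in either group.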

How the results depend on the processing

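No paired analysis was possible because the mouse numbers differ between the groups. The count of endothelial genes called was 0 under every alternative run, and the lowest adjusted p of any of them was 0.545, for Vwf without mouse 1. Over all genes, 9 calls became 67 with DESeq2, 19 with no filter on low counts, 2 with the robust option, 3 without mice 2 and 7, 2 without mouse 5, and 2 to 9 with a mouse left out. Of 120 log2 fold changes of the 10 genes under other settings, 115 kept their direction. The exceptions were Pecam1, at 0.053 without mice 2 and 7, 0.015 without mouse 5 and 0.0033 as a difference of mean log2 CPM, Tie1, at 0.046 without mice 2 and 7, and Prox1, at 0.012 as a difference of mean log2 CPM. Leaving out a mouse turned the direction in 21 of 80 values and in 9 genes, and none of these values was past the threshold. The ranges were -0.16 to 0.13 for Pecam1, -0.094 to 0.20 for Cdh5, -0.12 to 0.12 for Kdr, -0.21 to 0.12 for Tie1, -0.022 to 0.17 for Gpihbp1, -0.20 to 0.047 for Plvap, -0.45 to 0.20 for Prox1, -0.31 to 0.040 for Flt4 and -0.62 to 0.0095 for Mmrn1. Vwf kept its direction, at -0.40 to -0.10. Without mice 2 and 7, log2 fold changes were -0.50 for Prox1 and -0.63 for Mmrn1. Of 45 pairs of genes, 23 passed the threshold, 9 without mice 2 and 7, 4 without mice 1 and 7, an alternative chosen after seeing the data, and 9 to 25 with a mouse left out; fewer mice also allow fewer pairings. Ranked by CPM without length, Plvap moved to 4, Cdh5 to 1, Pecam1 to 2, Tie1 to 6, Gpihbp1 to 7, Kdr to 5 and Vwf to 3. The cause of these changes was not tested. With 57 to 182 counts a mouse, Prox1 had the least depth.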
